A study of Mus musculus with 4 samples.

Results

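Keratin 8 and keratin 18, the intermediate filament proteins of the hepatocyte, and 6 genes of bile duct cells and of ductular progenitor cells (Krt7, Krt19, Krt23, Epcam, Sox9 and Cd24a) were examined in mouse liver fed a steatohepatitis diet with or without 7-ketocholesterol (7KC). The 8 genes were chosen by symbol, out of 24346 symbols listed for each library, with earlier results of these data known. In these livers Krt8 and Krt18 stood at more than 100 FPKM and the 6 ductular genes between 0.317 and 7.65 FPKM. FPKM is the number of fragments per length of a gene's exons and per mapped fragment of its library, so it sets levels of different genes on a scale per length. None of the 7 genes that could be tested passed the threshold between the groups. The keratin pair of the hepatocyte had means of 155 and 145 FPKM (Krt8) and of 135 and 129 FPKM (Krt18) in the control and 7KC groups. On the log2 scale Cd24a had the largest difference of the members, 2.57 ± 0.657 against 3.94 ± 0.139 FPKM (mean ± SD, n = 2 per group). Krt19 was the only member whose 7KC libraries both lay below both control libraries, as those of 27.4% of all tested genes did.

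Keratins form filaments as pairs of a type II and a type I chain. Adult hepatocytes use a single pair, Krt8 (type II) with Krt18 (type I), and bile duct cells add Krt7 and Krt19 to it. When bile ducts or the parenchyma are injured, small ductules and progenitor-like cells can appear around the portal tracts, a change called the ductular reaction, and Epcam, Sox9, Cd24a and Krt23 are among the genes used to recognise it. In steatohepatitis, hepatocytes can swell and gather misfolded Krt8 and Krt18 with p62 and ubiquitin in inclusions called Mallory-Denk bodies.

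The libraries were made from liver of male C57BL/6 mice, aged 8 weeks at the start of feeding, that received a diet rich in fat, cholesterol and sucrose with bile salt (NASH diet) for 3 weeks. The 7KC group (n = 2) also received 7KC, an oxidized derivative of cholesterol, in that diet, and the control group (n = 2) did not. Both groups therefore carried the steatohepatitis diet, and no liver of a plain diet was part of the comparison. The labels give 2 replicates a group without saying whether each was a separate animal, so p-values measure the spread between these samples. The smallest steps between low FPKM values put the depth at 13650000 to 17000000 reads per library, and 10967 to 11415 genes reached 1 FPKM. Across the 12299 tested genes, 59 were higher and 3 lower with 7KC (limma, adjusted p under 0.05), which is 0.504% of all, and the median change was -0.03 on the log2 scale. The tissue label held in every library, with albumin (Alb) at 18988 to 41547 FPKM.

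The hepatocyte pair stood well above the other members, whose ranges partly overlapped. Krt8 ranged from 117 to 192 FPKM over the 4 libraries and Krt18 from 110 to 159 FPKM, so their ranges overlapped. Within each library Krt8 stood above Krt18, at a ratio of 1.07 to 1.21. They ranked 563 and 637 by mean FPKM among all genes. Krt23 came next at 3.69 to 7.65 FPKM, and its range met that of Cd24a at 2.11 to 4.04 FPKM. All 4 values of Cd24a lay above those of Krt19, which ranged from 1.12 to 1.50 FPKM. Krt19, Sox9 (0.913 to 1.66 FPKM) and Epcam (0.549 to 1.13 FPKM) overlapped each other, and Krt7, at 0.317 to 0.629 FPKM, overlapped Epcam alone. The depth behind these levels differed greatly, from 1825 to 5240 reads per library for the hepatocyte pair to 6 to 12 reads for Krt7.

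**Figure D1:**
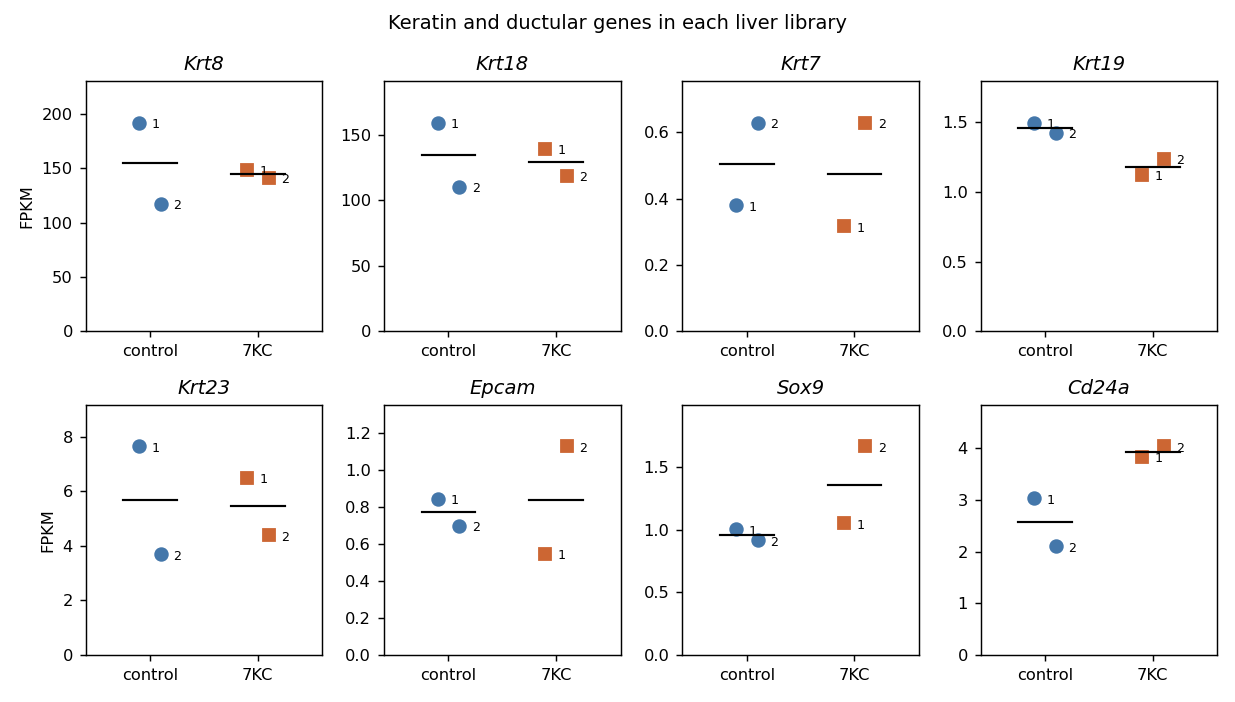
FPKM of the 8 genes in each library of the control group (circles) and the 7KC group (squares), with numbers for the replicate and a line for the mean of 2 libraries; each panel has its own axis from 0. Cd24a and Sox9 have both 7KC libraries above both control libraries, Krt19 has both below, and the other 5 genes overlap. Of all tested genes, 25.1% have both above and 27.4% both below.

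Krt8, Krt18 and Krt7 lie in the type II keratin cluster of chromosome 15, where Krt18 is the only type I gene. In the mm10 build (GRCm38.p6), Krt8 runs on the minus strand at chr15:101996711-102004342 and Krt18 on the plus strand at chr15:102028216-102032026, with their starts 23874 bases apart and pointing away from each other. Krt7 lies at chr15:101412403-101427806 on the plus strand. The type I genes Krt19 (chr11:100140810-100145926) and Krt23 (chr11:99477973-99493120) lie on the minus strand of chromosome 11, which also carries Sox9 (chr11:112782210-112787757, plus strand). Epcam lies at chr17:87635979-87651127 and Cd24a at chr10:43579169-43584265, both on the plus strand.

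The 250 bases before the start are shown for the hepatocyte pair and Krt23, the 3 members that ordered the 4 libraries alike, and for Krt7, the other keratin whose start was found. RefSeq start sites were found for 5 of the 8 members. Sequences are written 5′ to 3′ on the strand of the gene, and capitals mark letters that match GTGGGAA, the core bound by Rbpj in Notch signalling, or GGGCGG, the GC box, on either strand.
Krt8, chr15:102004343-102004592: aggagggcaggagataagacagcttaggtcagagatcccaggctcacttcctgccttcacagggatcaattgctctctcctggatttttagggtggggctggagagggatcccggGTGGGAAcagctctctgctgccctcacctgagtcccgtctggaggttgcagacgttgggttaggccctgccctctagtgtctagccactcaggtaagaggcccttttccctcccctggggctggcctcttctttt
Krt18, chr15:102027966-102028215: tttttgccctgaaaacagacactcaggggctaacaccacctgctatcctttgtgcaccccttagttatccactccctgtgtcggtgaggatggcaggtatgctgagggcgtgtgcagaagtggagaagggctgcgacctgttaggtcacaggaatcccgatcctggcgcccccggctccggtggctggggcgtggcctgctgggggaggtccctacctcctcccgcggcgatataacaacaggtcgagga
Krt23, chr11:99493121-99493370: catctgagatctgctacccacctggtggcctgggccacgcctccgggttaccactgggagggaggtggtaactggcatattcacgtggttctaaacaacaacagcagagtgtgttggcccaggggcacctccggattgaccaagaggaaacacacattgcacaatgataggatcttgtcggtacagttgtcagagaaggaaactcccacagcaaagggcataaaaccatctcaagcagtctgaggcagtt
Krt7, chr15:101412153-101412402: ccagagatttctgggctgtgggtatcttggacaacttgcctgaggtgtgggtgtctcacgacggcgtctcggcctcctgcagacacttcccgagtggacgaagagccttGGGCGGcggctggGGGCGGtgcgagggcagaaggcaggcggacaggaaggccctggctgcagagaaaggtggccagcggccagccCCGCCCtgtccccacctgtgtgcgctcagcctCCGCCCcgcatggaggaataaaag
The Krt8 window held GTGGGAA once, 135 bases before the start, and 5.42% of 32851 promoter windows of that length held it. The Krt7 window held the GC box 4 times, against 32.7% of windows with at least 1, and the Epcam window held it once. The other motifs searched on both strands matched none of the 5 windows. The TATA box TATAAA was in 12.4% of all windows, the CCAAT box in 33.8%, the AP-1 site TGACTCA in 4.46% and the TEAD site GGAATG, which YAP reaches through TEAD factors, in 12.6%. No letters searched were shared by Krt8, Krt18 and Krt23.

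The comparison of the 2 diets asked whether the members differed between livers on the NASH diet with and without 7KC. For Krt8, the type II keratin of hepatocytes, FPKM was 192 and 117 with the NASH diet and 149 and 141 with 7KC added. Both 7KC libraries lay between the control libraries. On the log2(FPKM + 0.5) scale, on which all changes below are given, Krt8 differed by -0.05 (SE 0.25, 95% interval -0.67 to 0.57, adjusted p = 0.933 by limma). For Krt18, its type I partner, FPKM was 159 and 110 with the NASH diet and 139 and 119 with 7KC added. These again lay between the controls, with a change of -0.04 (SE 0.21, 95% interval -0.57 to 0.48, adjusted p = 0.933 by limma). Changes inside these intervals were not detectable with 2 libraries a group.

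The spread that set these intervals lay in the control group. Krt8 rested on 5240 reads in control replicate 1 (95% Poisson interval 5099 to 5384) and on 2600 reads in control replicate 2 (2501 to 2702), so counting error was small beside the 1.64-fold range of its FPKM. Without control replicate 1 the change of Krt8 was 0.30 and that of Krt18 0.22, and without control replicate 2 they were -0.40 and -0.31. The sign of both also turned with the scale, to 0.16 each after every library was brought to the same sum (TPM), where the median of all tested genes moved to 0.17, and to 0.08 and 0.11 after quantile normalization, where that median was -0.08.

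Krt19, a type I keratin of bile duct cells and absent from mature hepatocytes, had 1.50 and 1.42 FPKM in control replicates 1 and 2 and 1.12 and 1.24 FPKM in 7KC replicates 1 and 2. Both 7KC libraries were below both control libraries, but the change of -0.22 (SE 0.16, 95% interval -0.63 to 0.19) did not pass the test (adjusted p = 0.513 by limma). The gene rested on 30 and 23 reads in the control and 18 and 20 reads in the 7KC libraries. Over the 13 alternative settings its change ranged from -0.40 to -0.08. Only a change of scale among them could turn its sign, as the groups did not overlap.

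Krt7, the type II keratin that pairs with Krt19 in bile ducts, had 0.380 and 0.628 FPKM in control replicates 1 and 2 and 0.317 and 0.629 FPKM in 7KC replicates 1 and 2. Its mean of 0.488 FPKM lay just under the filter of 0.5 FPKM, so it had no test among the others. In each group the value of replicate 2 stood above that of replicate 1. With the filter dropped its change was -0.05 (adjusted p = 0.931 by limma). At 9, 12, 6 and 12 reads, a difference between the libraries was not detectable at this depth.

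Krt23, a type I keratin that is low in healthy liver and can be induced in liver injury, had 7.65 and 3.69 FPKM in control replicates 1 and 2 and 6.50 and 4.40 FPKM in 7KC replicates 1 and 2. The spread within each group exceeded the difference between the group means of 5.67 and 5.45 FPKM. The change was 0.00 with the widest interval of the members, -0.90 to 0.90 (SE 0.36, adjusted p = 0.996 by limma). Leaving out a control library moved it to 0.48 or -0.48, depending on which was left out.

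Epcam, a cell adhesion protein on the surface of bile duct and progenitor cells, had 0.847 and 0.700 FPKM in control replicates 1 and 2 and 0.549 and 1.13 FPKM in 7KC replicates 1 and 2. The lowest and the highest value both belonged to the 7KC group. The change was 0.04 (SE 0.27, 95% interval -0.64 to 0.73, adjusted p = 0.952 by limma), on 14 to 28 reads per library. It was -0.28 without 7KC replicate 2, 0.36 without 7KC replicate 1 and -0.14 after quantile normalization.

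Sox9, a transcription factor of bile duct cells and of hepatocytes that take on ductal features, had 1.001 and 0.913 FPKM in control replicates 1 and 2 and 1.05 and 1.66 FPKM in 7KC replicates 1 and 2. All 7KC values exceeded all control values, 7KC replicate 1 by a small step. The 1.42-fold ratio of the means did not pass the test (change 0.33, SE 0.22, 95% interval -0.23 to 0.89, adjusted p = 0.481 by limma). The gene rested on 50 to 90 reads per library. Without 7KC replicate 2 the change was 0.09, and over the 13 alternative settings it ranged from 0.09 to 0.57.

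Cd24a, a small surface glycoprotein of ductular progenitor cells that is also carried by B cells, neutrophils and red cell precursors, had 3.04 and 2.11 FPKM in control replicates 1 and 2 and 3.84 and 4.04 FPKM in 7KC replicates 1 and 2. The groups did not overlap, and the 7KC libraries were higher, with a ratio of the means of 1.53. The change of 0.55 (SE 0.19, 95% interval 0.08 to 1.02) had an unadjusted p of 0.0304 and an adjusted p of 0.231 by limma, so it did not pass. Over the 13 alternative settings the change stayed between 0.33 and 0.77, with adjusted p from 0.101 to 0.663. Control replicate 2 gave the lowest value, on 47 reads, and without it the change was 0.33. Of the summed markers of these cells, only those of neutrophils ordered the libraries as Cd24a did. That order was not particular to neutrophils. The summed markers of macrophages and monocytes, of cycling cells and of cholangiocytes had it too, as did the summed cholangiocyte and ductular reaction genes. In control replicates 1 and 2 and then 7KC replicates 1 and 2, the neutrophil markers summed to 36.0, 19.9, 40.4 and 43.4 FPKM. Of 5 tested neutrophil genes, 4 had a positive change, and the median was 0.51. The 2 that were higher without overlap, Csf3r (change 1.18, adjusted p = 0.135 by limma) and S100a9 (change 0.51, adjusted p = 0.257), did not pass. The most abundant neutrophil gene, S100a8, had 16.6, 6.87, 18.8 and 15.8 FPKM in the same libraries and overlapped between the groups. Camp and Ngp, also neutrophil genes, were lower in both 7KC libraries, at 0.565 and 0.748 FPKM against 1.05 and 0.934 FPKM for Camp. B and plasma cell markers summed to 17.7, 3.66, 9.67 and 9.17 FPKM, and red cell markers to 209, 117, 120 and 104 FPKM. Their part in the level of Cd24a was not tested. In whole liver, more or fewer cells of a type cannot be told apart from more or less RNA per cell.

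Of the 7 tested members, 1 (Cd24a) was higher at an unadjusted p under 0.05, against 12% of all tested genes, and none was lower, against 5.81%. Sox9 and Cd24a were higher without overlap between the groups, where 25.1% of all tested genes were, and Krt19 was lower without overlap, where 27.4% were. With 2 libraries against 2, these counts lay near what all genes showed. The median change was -0.05 for the hepatocyte pair and 0.04 for the 5 tested ductular genes, against -0.03 for all tested genes.

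**Figure D2:**
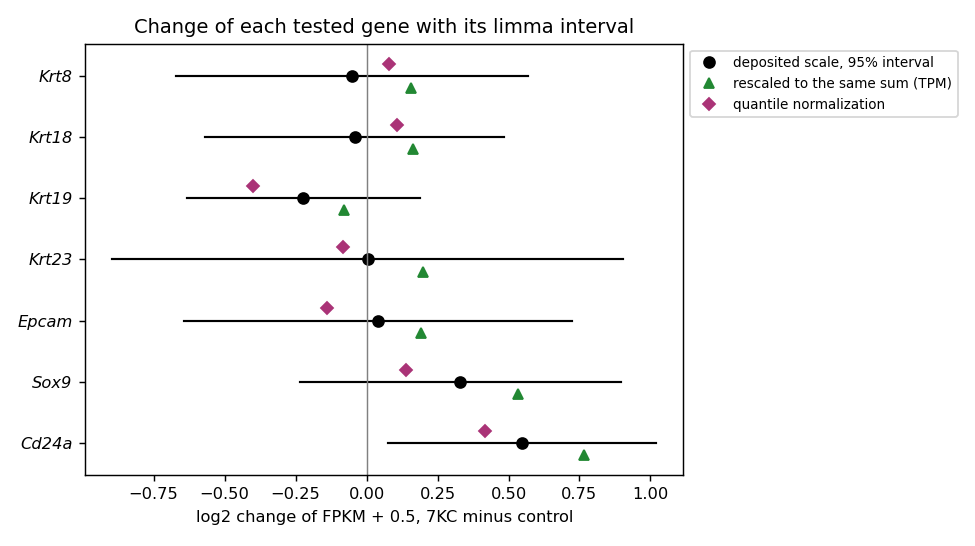
Change of the 7 tested genes (7KC minus control, log2 of FPKM + 0.5) on the deposited scale with its 95% limma interval (circles), after rescaling to the same sum (triangles) and after quantile normalization (diamonds). The interval of Cd24a alone lies above 0, at 0.08 to 1.02, and Krt8, Krt18, Krt23 and Epcam change sign between scales.

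Within a library, the ratio of genes needs no scaling between libraries. The ratio of Krt8 to Krt18 was 1.21 and 1.07 with the NASH diet and 1.07 and 1.19 with 7KC added, so the chains of the hepatocyte pair kept a ratio of 1.07 to 1.21 while their levels ranged 1.64-fold and 1.45-fold. The groups overlapped (difference -0.01 on the log2 scale, two-sided exact permutation p = 1). Krt19 per 1000 of Krt18 was 9.40 and 12.9 with the NASH diet and 8.07 and 10.4 with 7KC added, and these overlapped as well (difference -0.26, two-sided exact permutation p = 0.667). Adjusted over these 2 ratios, both exact permutation p were 1, and 2 libraries against 2 cannot give a p below 0.333.

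The other ratios are given as values without a test. Krt23 per 1000 of Krt18 was 48.0 and 33.5 in the control group and 46.7 and 37.0 in the 7KC group, so it too overlapped. Among the ductular genes, the ratio of Sox9 to Krt19 was 0.668 and 0.641 in the control group and 0.934 and 1.34 in the 7KC group. The ratio of Cd24a to Krt19 was 2.03 and 1.48 against 3.42 and 3.26. These ratios did not overlap, since Krt19 lay lower and Sox9 and Cd24a lay higher in the 7KC libraries. Epcam to Krt19 (0.565, 0.491, 0.488 and 0.911) and Krt7 to Krt19 (0.254, 0.441, 0.282 and 0.507) overlapped. Summed, the hepatocyte pair gave 351, 228, 288 and 260 FPKM in the 2 control and then the 2 7KC libraries. The 6 ductular genes summed to 14.4, 9.46, 13.4 and 13.1 FPKM, most of it Krt23 and Cd24a in each library. The mean log2 level of the hepatocyte pair exceeded that of the ductular genes by 6.34 and 5.95 in the control and by 6.17 and 5.81 in the 7KC group.

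The 4 libraries were ordered alike by 3 of the members. Krt8, Krt18 and Krt23 were highest in control replicate 1, then in 7KC replicate 1, then in 7KC replicate 2 and lowest in control replicate 2. This order was noticed after the values were seen, and 400 of the tested genes (3.25%) had it. Krt23 ranged 2.07-fold, more than Krt8 and Krt18. The order of the control libraries was also that of their depth, 17000000 and 13800000 reads, but the 7KC libraries were of like depth, 13650000 and 13700000 reads.

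Likeness to a member was measured as the root mean square difference of centred log2 profiles over the 4 libraries, over 11242 other genes, which were those with a mean of at least 1 FPKM and the members below it. The stated rule named genes only for members that spanned at least 1 on the log2 scale, and none did, with Krt23 widest at 0.96. Without that limit, a choice made after the values were seen, Krt18 was the 41st closest gene to Krt8 (difference 0.083) and Krt8 the 114th closest to Krt18. Krt8 and Krt18 ranked 68 and 73 for Krt23. The closest non-member was Uroc1 for Krt8 (0.019), Hn1l for Krt18 (0.011) and Gas2 for Krt23 (0.079). With 4 libraries many genes come this close.

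The mesothelium, the cell layer that covers the liver, also makes Krt7. All 8 listed mesothelial genes lay below the filter on low values, so none was tested, and their values are given as a description beside the few reads of Krt7. Mesothelin (Msln) had 0.061 and 0.793 FPKM in control replicates 1 and 2 and 0.038 and 0.681 FPKM in 7KC replicates 1 and 2. Upk3b had 0, 0.710, 0.040 and 0.355 FPKM in the same libraries, and Gpm6a had 0.210, 0.679, 0.263 and 0.392 FPKM. Of the mesothelial genes, Krt5 was at 0 in all libraries. Nkx2-3 had 0.061 and 0.038 FPKM in the control and 0.038 and 0.038 FPKM in the 7KC libraries. The other 6 had both replicates 2 above both replicates 1, as 12.2% of the 16858 genes above 0 in any library did. Krt7 was the only member with that pattern. Summed, the mesothelial genes had 0.529 and 2.84 FPKM in the control and 0.495 and 1.96 FPKM in the 7KC group. Their part in the level of Krt7 was not tested.

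**Figure D3:**
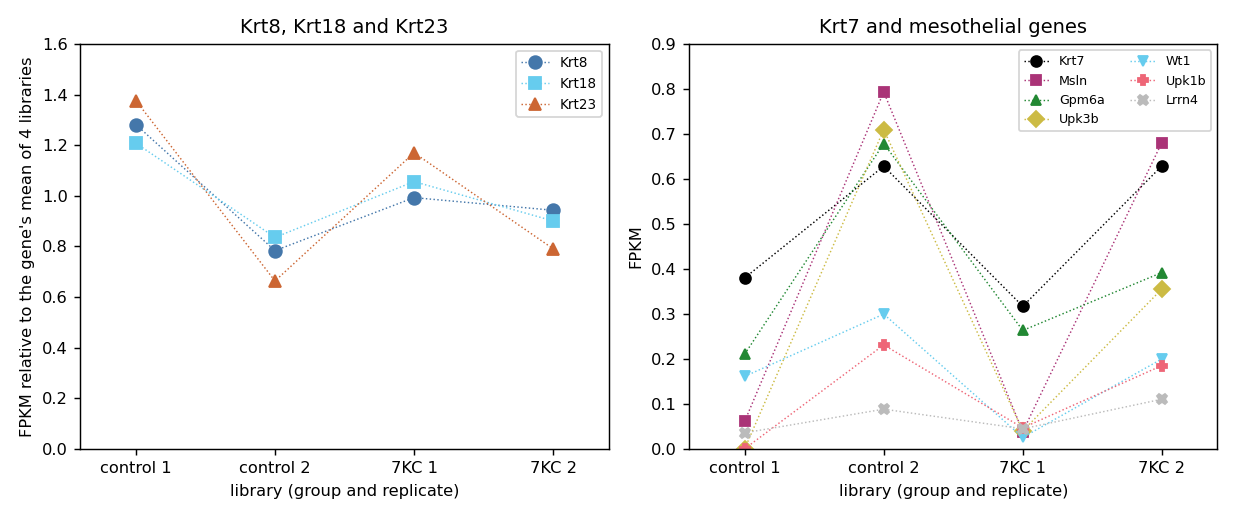
Left, FPKM of Krt8, Krt18 and Krt23 in the 4 libraries relative to each gene's mean; right, FPKM of Krt7 and 6 mesothelial genes in the same libraries. Dotted lines join the points of a gene and carry no order. Krt8, Krt18 and Krt23 are highest in control replicate 1 and lowest in control replicate 2. Krt7 and the 6 mesothelial genes shown, picked for that pattern, are higher in replicate 2 of each group. Krt5 and Nkx2-3, which were also listed and lack it, are not shown.

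Among all 52 keratin symbols, 40 were listed at 0 in every library and 5 passed the filter on low values. Krt8 and Krt18 together made up 97.0%, 97.2%, 97.0% and 97.0% of the summed keratin FPKM of 362 and 234 in the control and 297 and 268 in the 7KC libraries. Besides the members, Krt10, a type I keratin of the epidermis, passed the filter with 0.956 and 0.650 FPKM in the control and 0.424 and 0.651 FPKM in the 7KC libraries. It did not pass the test (change -0.33, adjusted p = 0.507 by limma). Krt80 and Krt17, keratins of stratified epithelium and of stressed epidermis, lay below the filter and are named after their values were seen. Krt80 had 0.186 and 0.138 FPKM in the control and 0.371 and 0.922 FPKM in the 7KC libraries, and Krt17 was listed at 0 in both control libraries and had 0.279 and 0.111 FPKM in the 7KC libraries.

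The wider list of 42 cholangiocyte and ductular reaction genes, without the members, had 26 tested genes, and 0 of them passed. Its median change was 0.26, against -0.03 for all tested genes. Of the 26, 19 were positive and 7 negative, against 5674 and 6625 of all tested genes. At an unadjusted p under 0.05, 6 were higher and 0 lower by limma, where 12% and 5.81% of all tested genes were. Without overlap 9 were higher and 1 lower, where 25.1% and 27.4% of all tested genes were. The list kept a median above that of all genes on the other scales. It was 0.45 against 0.17 after rescaling to the same sum and 0.14 against -0.08 after quantile normalization. The number of positive genes moved with the scale, to 26 of 26 after rescaling to the same sum and 17 of 26 after quantile normalization. Elf3, an epithelial transcription factor, had 0.637 and 0.458 FPKM in the control and 1.76 and 1.69 FPKM in the 7KC libraries (change 1.09, adjusted p = 0.0704 by limma). Mmp7, a protease of bile duct epithelium, had 1.92 and 1.19 against 3.49 and 3.90 FPKM (change 1.05, adjusted p = 0.0973). Spp1, osteopontin, made by bile duct cells and by macrophages, had 85.6 and 54.1 against 165 and 363 FPKM (change 1.84, adjusted p = 0.119). Lcn2, lipocalin 2, which injured hepatocytes and neutrophils also make, had 405 and 267 against 566 and 979 FPKM (change 1.18, adjusted p = 0.175). The remaining named genes were Cdh1, E-cadherin, with a change of 0.42 (adjusted p = 0.223), and Anxa3, an annexin, with 0.75 (adjusted p = 0.232). Pkhd1, a protein of the cilium of bile duct cells, had 0.615 and 0.401 against 0.518 and 0.588 FPKM.

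Notch and YAP signalling direct ductal fate in the liver, with Sox9 among the genes downstream of them. Of 34 genes named for these pathways, 32 were listed and 29 tested, and 0 passed. The median change was 0.02, which became 0.19 after rescaling to the same sum and -0.15 after quantile normalization. At an unadjusted p under 0.05, 3 of the 29 were higher, against 12% of all tested genes, and 1 was lower, against 5.81%. Lfng, a glycosyltransferase that modifies Notch receptors, had 4.45 and 4.68 against 8.36 and 10.2 FPKM (change 0.94, adjusted p = 0.0606 by limma). Axl, a receptor tyrosine kinase and YAP target that macrophages also carry, had 11.5 and 11.5 against 17.7 and 30.0 FPKM (change 0.98, adjusted p = 0.148). Rbpj, the DNA binding partner of the Notch receptors, differed by 0.37 (adjusted p = 0.212). Ctgf, a YAP target, went the other way, with 16.5 and 21.2 against 8.70 and 9.59 FPKM (change -0.99, adjusted p = 0.0621). Yap1 itself differed by -0.23 (adjusted p = 0.390). The Notch ligand Jag1 had 0.877 and 1.14 against 1.29 and 1.21 FPKM.

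Proteins that tie keratin filaments to desmosomes and to other filaments made up a list of 20 genes, of which 16 were tested and 0 passed. The median was -0.04 (0.15 after rescaling to the same sum), and at an unadjusted p under 0.05, 1 of the 16 was higher and 1 lower, against 12% and 5.81% of all tested genes. Vim, vimentin, the filament protein of mesenchymal and immune cells, had 61.2 and 45.1 against 111 and 138 FPKM (change 1.23, adjusted p = 0.0635 by limma). Dsc2, the desmosomal cadherin desmocollin 2, had 21.4 and 19.9 against 15.5 and 12.7 FPKM (change -0.54, adjusted p = 0.142). Perp, a desmosome protein, differed by -0.20 (adjusted p = 0.472), which became 0.0053 after rescaling to the same sum. Plec, the linker plectin, had 9.24 and 8.59 against 8.51 and 7.75 FPKM.

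Of 18 genes tied to Mallory-Denk bodies, 17 were tested and 0 passed, with a median of 0.02. At an unadjusted p under 0.05, 6 were higher, against 12% of all tested genes, and 1 was lower, against 5.81%. The latter was the autophagy receptor Nbr1 (change -0.31, adjusted p = 0.271 by limma). The 3 immunoproteasome subunits came closest to the threshold. Psmb8 had 59.8 and 53.8 against 121 and 109 FPKM (change 1.01, adjusted p = 0.0512 by limma). Psmb9 had 42.3 and 41.5 against 128 and 94.8 FPKM (change 1.39, adjusted p = 0.0512), and Psmb10 had 37.4 and 33.3 against 78.8 and 67.8 FPKM (change 1.04, adjusted p = 0.0523). These subunits are also abundant in immune cells, and each passed under 5 of the alternative settings. Tgm2, the transglutaminase that crosslinks keratins in these bodies, had 42.4 and 40.1 against 66.3 and 76.6 FPKM (change 0.78, adjusted p = 0.0621). Nqo1, an antioxidant enzyme, and Cryab, a small heat shock protein, differed by 0.47 (adjusted p = 0.168) and 0.50 (adjusted p = 0.249). The proteins that fill the bodies beside the keratins are encoded by abundant genes whose libraries stood close together. Sqstm1, which encodes p62, had 238 and 256 against 237 and 221 FPKM (change -0.11, adjusted p = 0.684), and the ubiquitin gene Ubb had 389 and 405 against 415 and 395 FPKM (change 0.03, adjusted p = 0.928). Hspa5, a chaperone of the endoplasmic reticulum, had 539 and 320 against 310 and 187 FPKM (change -0.78, adjusted p = 0.317).

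**Figure D4:**
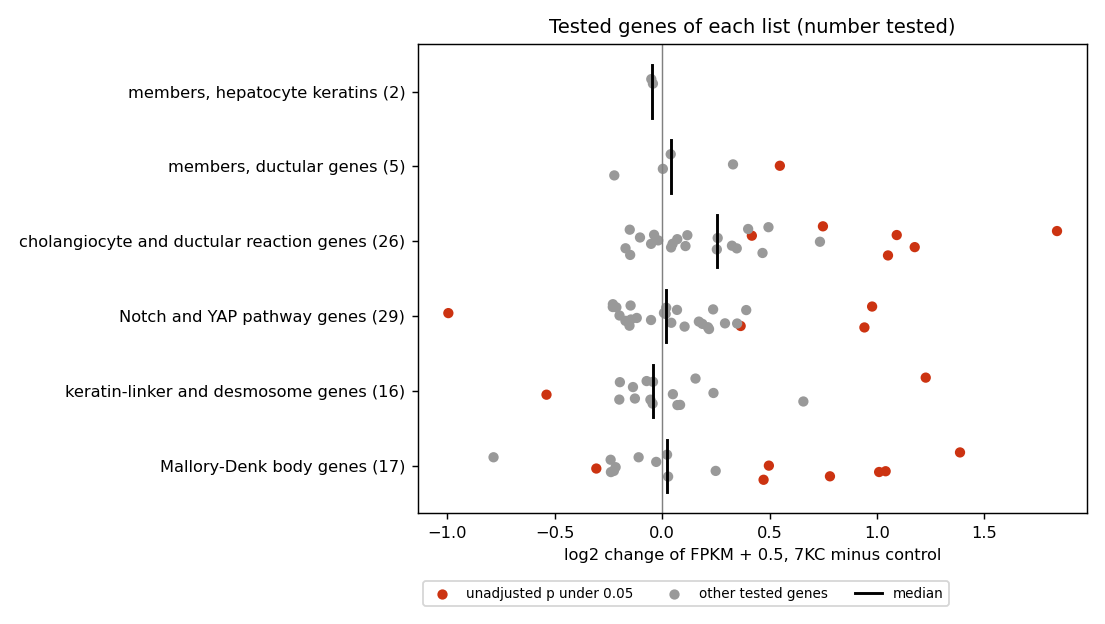
Change of each tested gene (7KC minus control, log2 of FPKM + 0.5) in the member groups and the 4 gene lists, with red points for an unadjusted limma p under 0.05, grey points for the rest and a bar for the median. The medians of the 6 rows lie between -0.05 and 0.26, and 0 points pass the adjusted threshold.

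Markers of other cells are given as sums, and no gene of these lists passed the adjusted threshold on the deposited scale. All 14 hepatocyte markers were tested and had a negative change (median -0.50), as did 6625 of the 12299 tested genes. Without overlap between the groups 11 of the 14 were lower, where 27.4% of all tested genes were, and Alb overlapped. The change was negative for 12 of 14 after rescaling to the same sum (median -0.29). After quantile normalization it was negative for 11 of 14 hepatocyte markers (median -0.14). Their sums were 78928 to 90546 FPKM in the control and 50370 to 66461 FPKM in the 7KC libraries. The summed cholangiocyte markers, 4 of which are members (Krt7, Krt19, Epcam and Sox9), had 65.9 to 95.9 against 174 to 375 FPKM, and most of that sum was Spp1. Without Spp1 the other 10 summed to 10.3 and 11.8 against 9.30 and 12.2 FPKM and overlapped, and the median change of the 7 tested markers was 0.07. None of these 11 markers was at 0 in all libraries. Sums were 266 to 290 against 390 to 579 FPKM for 12 macrophage and monocyte markers, 13.1 to 18.9 against 40.7 to 47.5 FPKM for 9 T and NK cell markers and 5.20 to 11.6 against 29.3 to 33.8 FPKM for 10 genes of cycling cells. Stellate cell and fibroblast markers (203 to 224 against 189 to 262 FPKM), red cell markers (117 to 209 against 104 to 120 FPKM) and markers of exocrine pancreas and gut (163 to 184 against 118 to 163 FPKM, 4 of 11 at 0) overlapped between the groups. Their part in the levels of Krt8, Krt18 and the ductular genes was not tested.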

How the data were processed

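Liver RNA of 4 libraries was analysed. Groups and replicate numbers are those of the labels. The authors prepared stranded messenger RNA libraries, sequenced them as single-end reads, mapped them to mm10 and calculated FPKM. FPKM was deposited, each symbol with 1 value in each library. The submitters' processing notes name TopHat2 2.1.1, Bowtie2 2.2.8, SAMtools 0.1.18 and Cuffdiff 2.2.1. The authors' published methods give other versions of TopHat, Bowtie2 and SAMtools and name Cufflinks. The annotation and the handling of reads shared between copies are not given in the sources used here, so keratin genes with processed pseudogenes, such as Krt8 and Krt18, can have exchanged reads.

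FPKM is not a count, so log2(FPKM + 0.5) of genes whose mean reached 0.5 FPKM was fitted with limma 3.58.1 in R 4.3.3 (trended prior, group only, residual degrees of freedom 2, prior 3.27). P-values were adjusted by Benjamini-Hochberg over all 12299 genes, with a threshold of 0.05. The pseudocount understates changes of low genes. Ratios were compared by exact permutation.

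Depth was taken from the steps of low FPKM with 3970 single-transcript genes of GENCODE on the same build, 200 bases taken off each transcript. At that depth 73.2% to 75.4% of values under 8 reads lay within 0.1 of a whole read. Read numbers served only to describe depth, and intervals cover counting error only.

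Named genes were all members, up to 6 genes of each list with the smallest unadjusted p under 0.05 and the 2 of highest mean, keratins of at least 0.5 FPKM, and others where the text says so or the gene's role is described. The marker lists for cell types are reported by their sums. The members and lists were chosen with earlier results of these data known. Same-numbered replicates deviated with a correlation of -0.14, and the labels give no meaning to the numbers, so no pairing was used. Alternatives covered the pseudocount, filter, variance prior, scaling, replicate block and each library left out.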

Additional observations from a re-analysis of the deposited data

How the results depend on the processing

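No member passed the threshold under any alternative that could be fitted. Of the named list genes, which did not pass on the deposited scale, Psmb8, Psmb9 and Psmb10 passed under 5 alternatives each, Vim under 2 and Elf3, Mmp7, Lfng, Tgm2 and Ctgf under 1 each. Of these settings, only the scalings could turn the sign of Krt19, Sox9 and Cd24a, since the groups did not overlap for them. On the other scales Krt19 kept a negative and Sox9 and Cd24a a positive change. Counts of all genes were less stable. Of 59 higher and 3 lower genes, the counts became 111 higher with a pseudocount of 1, 0 higher and 1 lower by limma without a filter (2634 at an unadjusted p under 0.05), 39 and 1 without a trended prior, 122 higher with median-ratio scaling, and 402 and 7 after rescaling to the same sum. Leaving out 1 library gave 2 to 389 higher and 1 to 52 lower genes, with the most without control replicate 1. The replicate block left 0 higher and 0 lower genes by limma, with 1851 at an unadjusted p under 0.05, and changed no other call. A pairing with crossed replicate numbers, chosen after seeing the data, gave 551 higher and 37 lower.

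Several signs turned. The change of Krt23 was -0.00079 with a pseudocount of 1. After rescaling to the same sum it was 0.16 for Krt8, 0.16 for Krt18 and 0.0053 for Perp. After quantile normalization it was 0.080 for Krt8, 0.11 for Krt18, -0.081 for Krt23 and -0.14 for Epcam. With 1 library left out, changes ranged from -0.40 to 0.30 for Krt8, -0.31 to 0.22 for Krt18, -0.48 to 0.48 for Krt23, -0.28 to 0.36 for Epcam and -0.0077 to 0.064 for Ubb.

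List medians moved with the scale. Rescaling to the same sum gave 0.45 for cholangiocyte and ductular reaction genes, 0.19 for Notch and YAP genes, 0.15 for linker and desmosome genes and 0.23 for Mallory-Denk genes. Quantile normalization gave 0.14, -0.15 and 0.14 for the cholangiocyte, Notch and YAP, and Mallory-Denk lists. Medians with 1 library left out were -0.043 to 0.37 for the ductular members, 0.14 to 0.39 for the cholangiocyte list and -0.078 to 0.19 for the Notch and YAP list. The cause of these shifts was not tested. Epcam had no value with a filter of 1 FPKM and Krt7 only without a filter. Depth limited Krt7, Epcam and Krt19, at 6 to 30 reads per library.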
